A study of Mus musculus with 50 samples.

Results

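The G1 cyclins and cell-cycle inhibitors described here are 10 genes: the D-type cyclins Ccnd1, Ccnd2 and Ccnd3, the cyclin-dependent kinase inhibitors Cdkn1a, Cdkn1b, Cdkn2c and Cdkn2d, and the downstream or upstream regulators Rb1, E2f1 and Trp53. They were chosen by name, with earlier results of these data known, and all 10 were found among the 53700 genes counted in each mouse. Microglia were sorted as CD45int CD11b+ cells from the hippocampus of male C57BL/6J mice, 1 RNA library per mouse and 50 libraries in total. The early-life stress (ELS) was a shortage of nest and cage-floor material between postnatal day (P) 2 and P9, and control (CTR) litters had no such shortage. The design asked how ELS bears on microglia at the end of the stress, in adulthood, and after an inflammatory challenge in adulthood.

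The groups were P9-CTR (12 mice) and P9-ELS (13 mice), taken at P9 with no injection, and 4 adult groups taken at P200. Adults received an intraperitoneal injection of either PBS or lipopolysaccharide (LPS, a bacterial cell wall component that triggers inflammation) at 1 mg/kg, and were taken 3 h later: P200-CTR-PBS (7 mice), P200-ELS-PBS (6 mice), P200-CTR-LPS (7 mice) and P200-ELS-LPS (5 mice). Single mice are named by age and a label of 2 numbers. The first number, of which each group had 4 or 5, was taken as the nest, a reading that the labels do not spell out for adults, so mice that share it may be littermates. The p-values cover the spread between mice. The P9 and adult mice were separate cohorts, and myelin was removed on a Percoll gradient in adults only, so age, cohort and isolation cannot be told apart.

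Total counts assigned to genes ranged from 5152838 to 42231258 per mouse, with group medians between 18474916 (P200-ELS-LPS) and 22304746 (P200-ELS-PBS). Microglial markers matched the sorted cell type in group mean. In counts-per-million units (CPM), means ran from 6833 to 9574 for Cx3cr1, from 8420 to 14400 for P2ry12 and from 2111 to 9055 for Tmem119. Every mouse had reads of all 3. Single P9-ELS values fell as low as 1073 CPM for Cx3cr1 (group median 7202) and 180 CPM for Tmem119 (group median 2260). In 3 libraries fewer than 16000 genes were detected, P9-ELS mice P9_19.3 (12482 genes) and P9_19.2 (15731 genes) and P200-CTR-PBS mouse P200_1.1 (12854 genes). Of the 10 genes, mouse P9_19.2 held the lowest value of its group in 5 (Ccnd1, Ccnd3, Cdkn1b, E2f1 and Trp53) and the highest in 3 (Cdkn2c, Cdkn2d and Rb1), and mouse P9_19.3 the lowest in 2 (Ccnd2 and Rb1) and the highest in 3 (Ccnd1, Cdkn1a and Trp53). Mouse P200_1.1 held the lowest Ccnd1, Cdkn2c, Cdkn2d and Trp53 values, shared the lowest Ccnd2 and E2f1 values of 0, and held the highest Ccnd3 and Cdkn1a values, so counts of genes that passed the test are also given without these 3 mice.

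As background, D-type cyclins bind and activate the kinases Cdk4 and Cdk6, which phosphorylate the retinoblastoma protein Rb1 and so release E2F transcription factors that switch on genes for DNA replication. The INK4 inhibitors, among them the products of Cdkn2c (p18) and Cdkn2d (p19), bind Cdk4 and Cdk6, and the Cip/Kip inhibitors p21 (Cdkn1a) and p27 (Cdkn1b) bind cyclin-kinase complexes. Microglia proliferate in the early postnatal brain and renew slowly in the adult.

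Values are CPM scaled by the trimmed mean of M values (TMM). Differences were tested on the deposited counts by the quasi-likelihood test of edgeR in 1 fit over all 6 groups, with Benjamini-Hochberg adjustment over the 16696 genes that reached 1 CPM in at least 3 mice, and a gene passed at an adjusted p under 0.05. All 10 genes were among those tested. Of these, 5 were lower in PBS-injected adults than at P9 in both CTR and ELS mice (Ccnd2, Cdkn1a, Cdkn2c, Cdkn2d and E2f1), and the other 5 did not pass. Over all tested genes 26.6% were lower in CTR (44.1% passed in either direction) and 25% in ELS (42.2% in either direction). After LPS, Ccnd2, Cdkn1a and Cdkn2d rose and Rb1 fell in both CTR and ELS mice, 3 higher and 1 lower of 10, where 8.73% of all genes were higher and 6.2% lower in CTR, and 7.4% higher and 4.94% lower in ELS. The age and LPS comparisons share the PBS-injected mice.

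None of the 10 genes passed the edgeR test between ELS and CTR mice, at P9, in PBS-injected adults or in LPS-injected adults. The share of all genes that passed was 0%, 0.168% (28 genes) and 0%. At an unadjusted p under 0.05 there were 914, 1622 and 798 genes, and DESeq2 called 0, 177 and 2 genes, none of them a member of the group. For PBS-injected adults the number depended on the fit, from 0 in limma-voom with the nest as a random effect and in edgeR with only the compared groups, through 2 with either other filter and 6 with DESeq2 size factors, to 215 by the edgeR likelihood-ratio test. The likelihood-ratio test called 1 gene at P9 and 10 in LPS-injected adults.

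**Figure D1:**
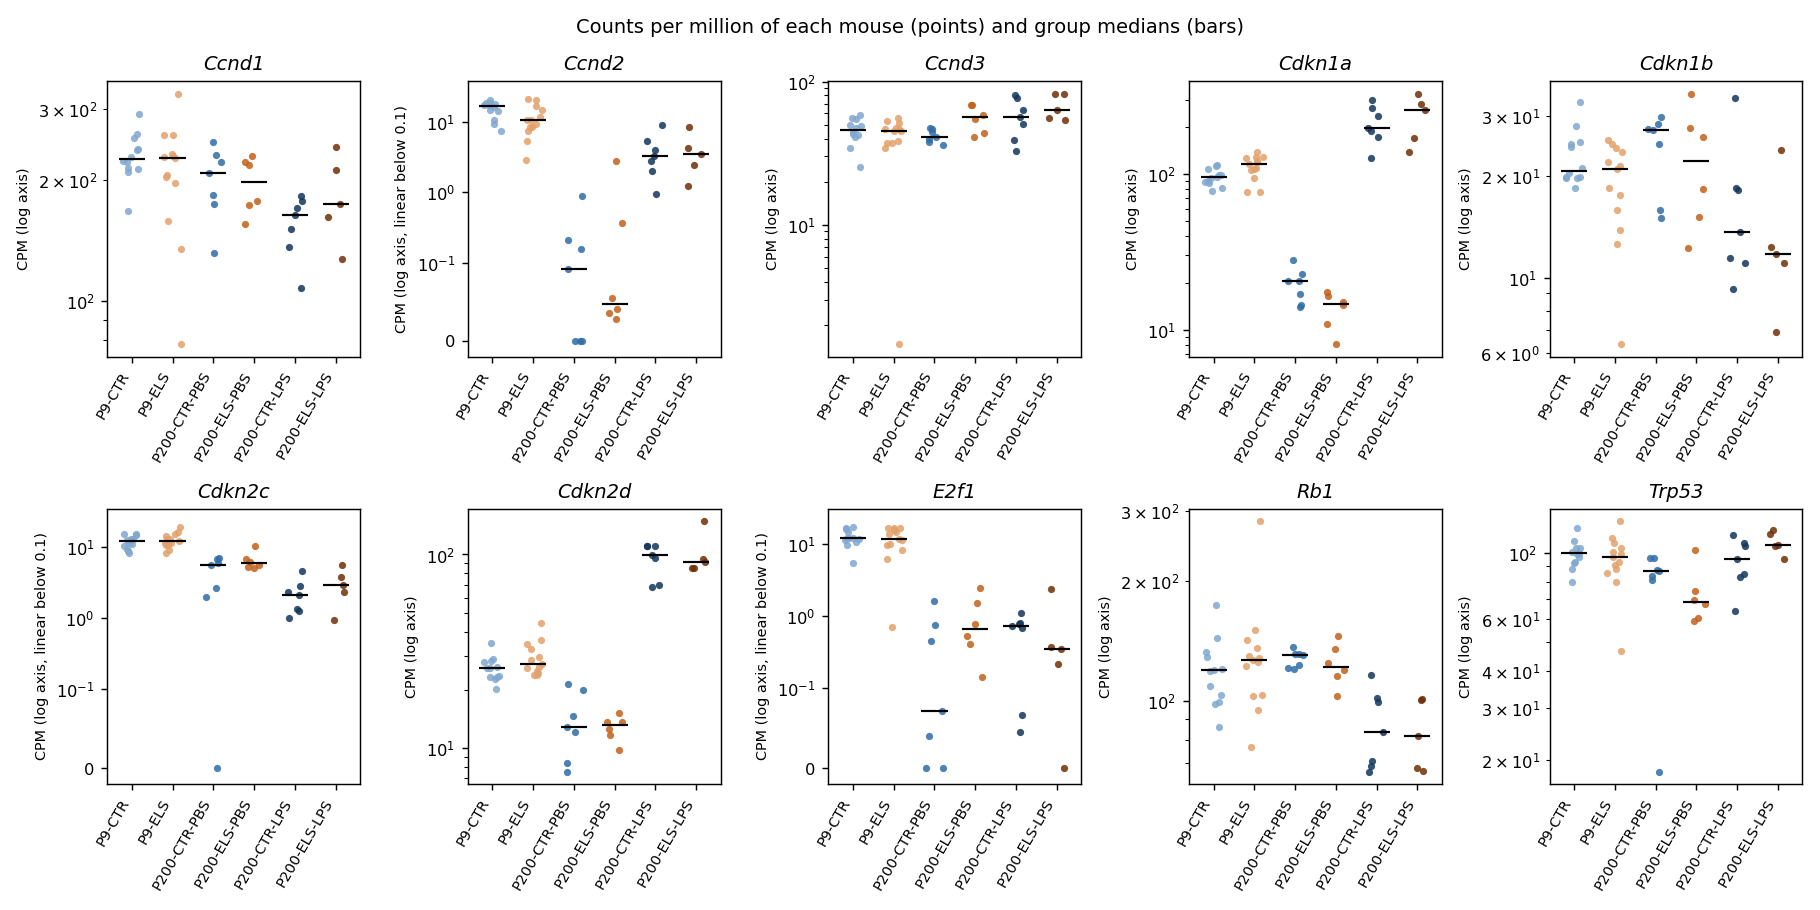
CPM of the 10 genes in each of the 50 mice (points, 1 per mouse, spread sideways for legibility) by group, with the group median as a bar, on a log axis that is linear below 0.1 CPM for Ccnd2, Cdkn2c and E2f1. Ccnd2 lay at 2.87 to 21.3 CPM at P9 and at 0 to 2.78 CPM in PBS-injected adults, and Cdkn1a and Cdkn2d were highest in LPS-injected adults.

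Levels of different genes were compared per kilobase of merged exon. In P9-CTR mice Ccnd1 was highest at 48.1 ± 6.5 CPM per kilobase (SD, n = 12), followed by Cdkn1a at 15.9, Cdkn2d at 15.6, Trp53 at 13.4, Rb1 at 9.92, Cdkn1b at 5.02, Ccnd3 at 4.92, E2f1 at 3.58, Cdkn2c at 1.86 and Ccnd2 at 1.63 CPM per kilobase. Within that order Cdkn1a and Cdkn2d, Cdkn1b and Ccnd3, and Cdkn2c and Ccnd2 were neighbours closer than the smaller of their 2 SDs, and the ranges over mice of all neighbours below Ccnd1 overlapped. The order at P9 was the same in ELS mice except that Ccnd3 (4.49 CPM per kilobase) and Cdkn1b (4.17 CPM per kilobase), again within 1 SD, changed places.

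In PBS-injected adults Ccnd1 was again the highest, at 41.8 ± 8.3 CPM per kilobase in CTR (SD, n = 7) and 41 ± 6.4 in ELS (SD, n = 6), and no other gene exceeded 10.6 CPM per kilobase in group mean. Trp53 and Rb1, at 10.6 and 10.6 CPM per kilobase in CTR and 9.78 and 10.3 in ELS, did not differ beyond their spread by this length. Cdkn1a stood at 3.24 and 2.26 CPM per kilobase, and Ccnd2 was the lowest at 0.0205 and 0.0584. After LPS, Cdkn2d was the highest in group mean at 57.1 ± 11.3 CPM per kilobase in CTR (range 40.9 to 66.7) and 60.8 ± 16.1 in ELS, above Cdkn1a at 35.2 ± 9.7 and 38.9 ± 13.1 and Ccnd1 at 32.6 ± 5.5 and 38.4 ± 9.3. The ranges of Cdkn1a and Ccnd1 overlapped in both LPS groups, as did those of Cdkn2d and Cdkn1a (highest Cdkn1a value 49.4 CPM per kilobase in CTR). With the longest transcript in place of the merged exons Ccnd1 was highest in the same 4 groups, but Trp53 and Rb1 then ranked above Cdkn1a in P9-CTR mice. Rb1 was then also above Trp53 in PBS-injected adults, with ranges of 24 to 27.3 against 4.52 to 23.6 CPM per kilobase in CTR and means of 24.7 against 17.8 in ELS, so the order of these 2 genes depends on the length used.

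Summed over the 3 D-type cyclins, the mean level was 54.7, 49.8, 46.4, 47.1, 39.2 and 46.1 CPM per kilobase, with CTR before ELS at P9, then with PBS, then with LPS. Ccnd1 made up 88%, 88.4%, 89.8%, 86.8%, 83.3% and 83% of that sum in the same order. The 4 inhibitors summed to 38.4 ± 2.7 and 42.3 ± 5.7 CPM per kilobase in P9-CTR and P9-ELS, to 17.6 ± 2.6 and 15.9 ± 2.5 in PBS-injected CTR and ELS adults, and to 96.2 ± 15.8 and 103.1 ± 14.8 (SD) in LPS-injected CTR and ELS adults. Within the inhibitor sum Cdkn1a fell from a mean share of 41.4% at P9 to 18.9% in PBS-injected CTR adults and stood at 36.5% after LPS, while Cdkn1b took 13.1%, 30.8% and 3.9%. These sums and shares are descriptions and were not tested.

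**Figure D2:**
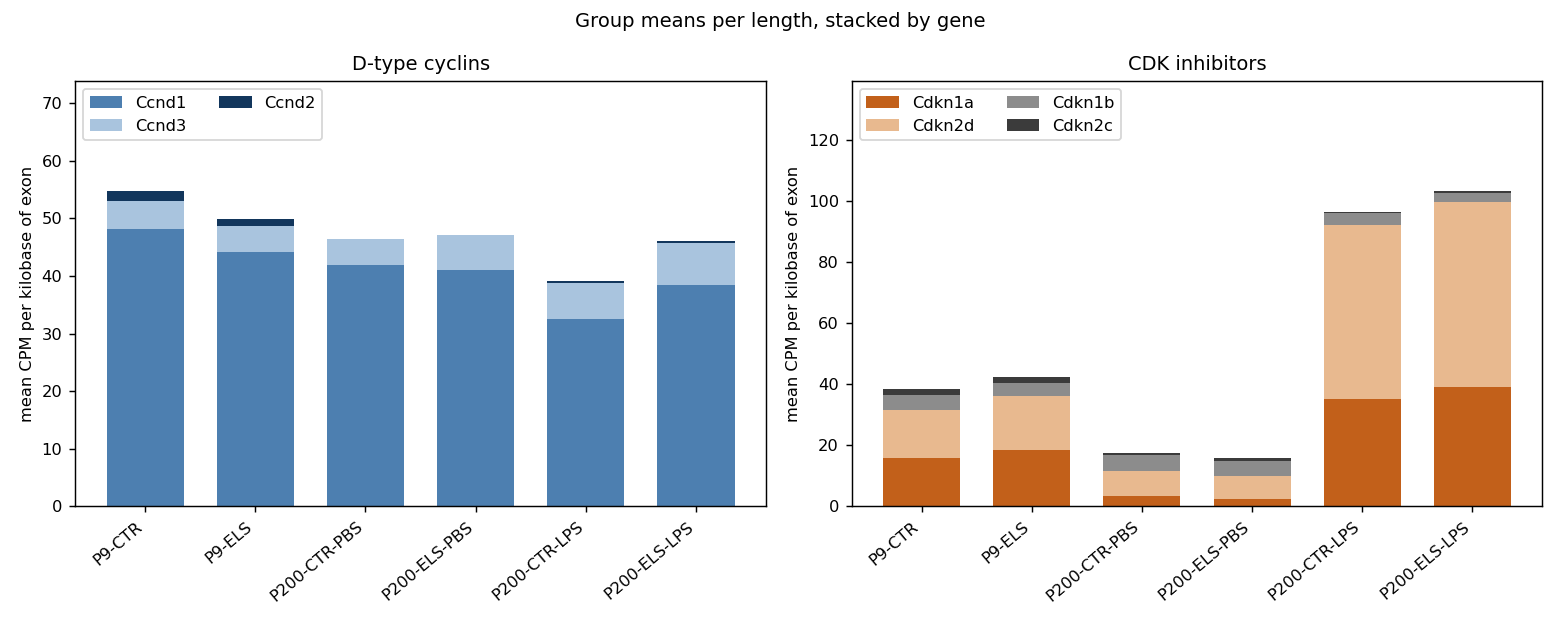
Mean CPM per kilobase of merged exon in each group, stacked by gene, for the 3 D-type cyclins (left) and the 4 kinase inhibitors (right). The cyclin sum stayed between 39.2 and 54.7 CPM per kilobase, and the inhibitor sum ran from 15.9 in PBS-injected ELS adults to 103.1 in LPS-injected ELS adults; no error bars are drawn.

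Ccnd1 (ENSMUSG00000070348, GRCm39 chromosome 7, 144483668 to 144493662) encodes cyclin D1, the D-type cyclin with the highest level per length in every group. Its lowest, median and highest values were 168, 226 and 292 CPM in P9-CTR and 78.3, 227 and 328 in P9-ELS, 132, 209 and 248 in P200-CTR-PBS and 156, 198 and 229 in P200-ELS-PBS. After LPS they were 108, 164 and 183 CPM in CTR, and the 5 ELS mice had 174, 162, 242, 211 and 127 CPM. All groups overlapped. The log2 fold changes with age were -0.20 in CTR and -0.11 in ELS, and those after LPS -0.36 in CTR and -0.09 in ELS, with edgeR adjusted p between 0.176 and 0.827. The exons of Ccnd1 overlap those of LTO1 on the opposite strand, which had a median of 1046 counts. Whether counting used strand is not given in the sources used here, so reads of genes that overlap in this way may not have been told apart.

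Ccnd2 (ENSMUSG00000000184, chromosome 6, 127102125 to 127129156) encodes cyclin D2 and differed most between ages on the log2 scale. It had 7.55, 16.9 and 20.4 CPM (lowest, median, highest) in P9-CTR and 2.87, 10.7 and 21.3 CPM in P9-ELS. In PBS-injected adults the values were 0, 0.0916 and 0.888 CPM in CTR, with 0 reads in 3 of 7 mice, and 0.0282, 0.0473 and 2.78 CPM in ELS. Every P9 mouse therefore lay above every PBS-injected adult of its condition, with P9 means 79.7-fold higher in CTR and 20.9-fold higher in ELS. The decrease with age was -6.15 on the log2 scale in CTR (SE 0.74, edgeR adjusted p = 1.74e-09) and -4.42 in ELS (SE 0.71, edgeR adjusted p = 1.37e-06).

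After LPS, Ccnd2 stood at 0.945, 3.33 and 9.06 CPM (lowest, median, highest) in CTR mice, and at 3.54, 1.23, 2.47, 4.28 and 8.6 CPM in the 5 ELS mice. All 7 LPS-injected CTR mice lay above all 7 PBS-injected ones, whereas 3 of 5 LPS-injected ELS mice lay above all PBS-injected ELS mice, because PBS mouse P200_17.2 had 2.78 CPM and the other 5 had at most 0.362. The log2 rise was 4.18 in CTR (SE 0.72, edgeR adjusted p = 1.4e-05) and 2.90 in ELS (SE 0.73, edgeR adjusted p = 0.00401). In CTR, without PBS mouse P200_18.2, which had 0.888 CPM against at most 0.214 in the others, the age change was -7.57 (edgeR adjusted p = 2.02e-10) and the LPS rise 5.60 (edgeR adjusted p = 6.35e-07), so the CTR fold ratio also depends on 1 mouse. Without mouse P200_17.2 the ELS value was 5.34 (edgeR adjusted p = 5.32e-07) and the age change in ELS was -6.84 (edgeR adjusted p = 2.97e-10). The ELS rise did not pass when only the ELS-PBS and ELS-LPS mice were fitted (edgeR adjusted p = 0.0698), the highest of a range that began at 5.32e-07 over its alternatives, nor when only adults were fitted (edgeR adjusted p = 0.0579), a fit added after the data were seen. Mean levels after LPS were 0.256 and 0.351 times those at P9 in CTR and ELS, with overlapping ranges. Gm43126 (median 8 counts, highest 55) and 9330179D12Rik (highest 16) overlap the exons of Ccnd2 on the opposite strand. PBS-injected adults had 0 to 26 Ccnd2 reads in CTR and 1 to 58 in ELS, so their differences rest on few reads, and a count of 0 says only that the gene was not detectable at this depth. Between ELS and CTR in PBS-injected adults the log2 difference was 1.31 (SE 0.74, edgeR adjusted p = 0.603), and it ranged from -1.12 to 2.74 as single mice were left out.

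Ccnd3 (ENSMUSG00000034165, chromosome 17, 47815767 to 47910624), which encodes cyclin D3, had 25.4, 46 and 58.3 CPM in P9-CTR and 1.47, 45.5 and 55.9 CPM in P9-ELS, the lowest value being that of mouse P9_19.2. PBS-injected adults had 36.2, 40.9 and 47.2 CPM in CTR and 40.9, 56.5 and 68.5 CPM in ELS, and LPS-injected adults 32.6 to 80.1 CPM in CTR and 53.6 to 82.5 CPM in ELS. In PBS-injected adults 4 of 6 ELS mice lay above all 7 CTR mice, but the log2 difference of 0.42 (SE 0.30) did not pass (edgeR adjusted p = 0.728). Log2 changes with age were -0.12 and 0.43 and after LPS 0.45 and 0.27 in CTR and ELS, none of which passed (edgeR adjusted p of 0.186 to 0.729). Bysl overlaps its exons on the opposite strand (median 763 counts).

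Cdkn1a (ENSMUSG00000023067, chromosome 17, 29309936 to 29319701) encodes p21, an inhibitor of cyclin-kinase complexes and a textbook target of p53. Its values were 78.1, 95.5 and 115 CPM (lowest, median, highest) in P9-CTR and 76.7, 117 and 138 CPM in P9-ELS. PBS-injected adults had 14.1, 20.5 and 28 CPM in CTR and 8.08, 14.7 and 17.4 CPM in ELS. LPS-injected adults had 126, 196 and 298 CPM in CTR, and 281, 138, 170, 258 and 329 CPM in the 5 ELS mice. Within each condition, P9, PBS-injected and LPS-injected mice formed 3 ranges with no overlap, lowest with PBS and highest with LPS. Means were 4.9-fold higher at P9 than in PBS-injected adults in CTR and 8.17-fold in ELS, and LPS-injected means were 10.9-fold and 17.21-fold those of PBS, or 2.22-fold and 2.11-fold those at P9. With age the log2 fold change was -2.29 in CTR (SE 0.17, edgeR adjusted p = 1.02e-15) and -3.03 in ELS (SE 0.19, edgeR adjusted p = 1.99e-18). After LPS it was 3.44 in CTR (SE 0.19, edgeR adjusted p = 3.71e-20) and 4.11 in ELS (SE 0.22, edgeR adjusted p = 5.91e-21), where Cdkn1a ranked 8 and 5 by p among the 16696 genes. 1700023B13Rik overlaps the exons of Cdkn1a on the opposite strand (median 236 counts, highest 1206). PBS-injected adults had 199 to 550 Cdkn1a reads, so the Cdkn1a counts and folds are uncertain.

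Of the 10 genes Cdkn1a had the smallest unadjusted p between ELS and CTR in PBS-injected adults (0.0078). There the log2 difference was -0.52 (SE 0.19), and 4 of 7 CTR mice lay above all ELS mice and 2 of 6 ELS mice below all CTR mice. It did not pass (edgeR adjusted p = 0.253), in the full fit or in its alternatives (adjusted p of 0.184 to 0.586 by edgeR, DESeq2 or limma). The test of whether the age change differed between ELS and CTR gave -0.74 for Cdkn1a (SE 0.23, unadjusted p = 0.00217, edgeR adjusted p = 0.267), and the same test of the LPS change gave 0.66 (SE 0.27, unadjusted p = 0.0161, edgeR adjusted p = 0.665). Both share the PBS-injected mice of both conditions. Those of ELS had the lowest Cdkn1a values, and the highest PBS-injected CTR value, 28 CPM, was that of low-detection mouse P200_1.1. Without that mouse the edgeR adjusted p was 0.586 between ELS and CTR in PBS-injected adults. It was then 0.497 in the age test and 0.961 in the LPS test, each the highest over its alternatives. At P9 the ELS and CTR ranges overlapped (log2 difference 0.22, SE 0.13, edgeR adjusted p = 0.937).

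The promoter of Cdkn1a is shown because the gene had the smallest adjusted p of the 10 after LPS. RefSeq promoter windows (250 bases before to 50 after a start site, table build GRCm38.p6) existed for 7 of the 10 genes, 10 windows in all, and each matched GRCm39 at 1 place. Searched on both strands, the E2F octamers TTTCCCGC, TTTCGCGC, TTTGCCGC and TTTGGCGC occurred in 0 of the 10 windows (2.26% of 32851 windows genome-wide) and the AP-1 motif TGANTCA in 0 of 10 (7.81%). The RefSeq start sites of E2f1 and of the 2 Cdkn2c windows lay 294, 1474 and 90 bases from the nearest GENCODE start, and all 250 bases before them were exonic, as were 222 in the Cdkn2d window and 209 in 1 Ccnd3 window, so these counts do not describe sequence upstream of those genes. A pair of CATG cores with 6 bases between them, the core of the p53 response element in the form CATGNNNNNNCATG, was searched after the sequence had been read and occurred once, 48 bases before the RefSeq start site of the distal Cdkn1a window (0.712% of all windows). It is in capitals in the 233 bases of chr17:29309703-29309935 (GRCm39, + strand), which lie upstream of the annotated first exon. A match of letters is a description and shows no binding.
Cdkn1a: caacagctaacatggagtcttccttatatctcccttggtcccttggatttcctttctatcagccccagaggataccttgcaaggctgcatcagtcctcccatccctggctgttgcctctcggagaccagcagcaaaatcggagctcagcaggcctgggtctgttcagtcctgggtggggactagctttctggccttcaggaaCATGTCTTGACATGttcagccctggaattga

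Cdkn1b (ENSMUSG00000003031, chromosome 6, 134897364 to 134902476) encodes p27, the other Cip/Kip inhibitor. Its values were 18.4, 20.7 and 32.9 CPM in P9-CTR, 6.38, 20.9 and 25.5 in P9-ELS, 15, 27.2 and 29.7 in P200-CTR-PBS and 12.2, 22.1 and 34.9 in P200-ELS-PBS. LPS-injected adults had 9.28, 13.7 and 33.8 CPM in CTR, and 11.7, 12.3, 23.8, 11 and 6.94 CPM in the 5 ELS mice. All groups overlapped, and the highest CTR value after LPS was that of mouse P200_5.3, the others lying between 9.28 and 18.4. The log2 change after LPS was -0.54 in CTR (SE 0.26, edgeR adjusted p = 0.169) and -0.76 in ELS (SE 0.30, edgeR adjusted p = 0.0882), neither passing. It passed in CTR without LPS mouse P200_5.3 (-0.82, edgeR adjusted p = 0.0226, in a range of 0.0226 to 0.331 over all alternatives). In ELS it passed without LPS mouse P200_11.2 (-1.09, edgeR adjusted p = 0.0139) or PBS mouse P200_17.1 (-0.89, edgeR adjusted p = 0.0483), in a range of 0.0139 to 0.246. With age the log2 changes were 0.08 and 0.23 in CTR and ELS (edgeR adjusted p = 0.817 and 0.458). Gm44238 overlaps the exons of Cdkn1b on the opposite strand (median 9 counts, highest 162).

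Cdkn2d (ENSMUSG00000096472, chromosome 9, 21199700 to 21202727) encodes the INK4 inhibitor p19 and followed the order of Cdkn1a across groups. It had 20.21, 26 and 35 CPM (lowest, median, highest) in P9-CTR and 23.8, 27.2 and 44.6 CPM in P9-ELS. PBS-injected adults had 7.58, 13 and 21.5 CPM in CTR and 9.82, 13.1 and 15.23 CPM in ELS. LPS-injected adults had 68, 99 and 111 CPM in CTR, and 91.6, 94.7, 148, 85.5 and 85 CPM in the 5 ELS mice, mouse P200_11.2 standing apart from the other 4. The lowest LPS value thus lay above every P9 and every PBS value, and 6 of 7 PBS-injected CTR mice and all 6 PBS-injected ELS mice lay below all P9 mice of their condition. LPS-injected means were 6.82-fold and 7.9-fold those of PBS in CTR and ELS, and 3.65-fold and 3.43-fold those at P9. With age the log2 fold change was -0.90 in CTR (SE 0.16, edgeR adjusted p = 1.1e-05) and -1.20 in ELS (SE 0.17, edgeR adjusted p = 1.37e-07). After LPS it was 2.77 in CTR (SE 0.19, edgeR adjusted p = 7.16e-17, rank 15 by p) and 2.98 in ELS (SE 0.21, edgeR adjusted p = 2.95e-16, rank 14).

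Cdkn2c (ENSMUSG00000028551, chromosome 4, 109517957 to 109524386), which encodes the INK4 inhibitor p18, differed from Cdkn2d after LPS. It had 8.11, 12 and 15.11 CPM in P9-CTR and 8.09, 12.2 and 19.05 CPM in P9-ELS, against 0, 5.57 and 7.06 CPM in P200-CTR-PBS and 5.05, 5.86 and 10.2 CPM in P200-ELS-PBS. After LPS it stood at 1.01, 2.13 and 4.53 CPM in CTR, and at 2.29, 2.92, 5.56, 3.79 and 0.939 CPM in the 5 ELS mice. Both LPS groups lay below all P9 mice of their condition, and PBS-injected adults lay below all P9 mice in CTR (7 of 7) and in 5 of 6 ELS mice. The decrease with age was -1.47 on the log2 scale in CTR (SE 0.37, edgeR adjusted p = 0.00122, with values of -2.40 to -1.25 over all alternatives) and -0.96 in ELS (SE 0.38, edgeR adjusted p = 0.0378).

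The ELS decrease of Cdkn2c lost its call without PBS mouse P200_2.1, P200_4.1, P200_11.1, P200_17.1 or P200_17.2 (edgeR adjusted p = 0.0566, 0.0785, 0.0724, 0.0754 and 0.0683) and with no filter on low counts (edgeR adjusted p = 0.0558), in a range of 0.00134 to 0.0785 over all alternatives, while its log2 value stayed between -1.13 and -0.90. After LPS the log2 change of Cdkn2c was -0.94 in CTR (SE 0.41, edgeR adjusted p = 0.118) and -1.06 in ELS (SE 0.46, edgeR adjusted p = 0.136), the opposite sign to Cdkn2d. The CTR value passed without LPS mouse P200_1.3 (-1.23, edgeR adjusted p = 0.0448) or PBS mouse P200_1.1 (-1.16, edgeR adjusted p = 0.00506), and it was 0.03 in limma-voom with the nest as a random effect (limma adjusted p = 0.983), the highest of its range from 0.00326. PBS mouse P200_1.1, a low-detection library, had 0 Cdkn2c reads.

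E2f1 (ENSMUSG00000027490, chromosome 2, 154401326 to 154411812) encodes a transcription factor that is held by Rb1 and is itself a textbook E2F target. It had 5.46, 11.8 and 16.9 CPM in P9-CTR and 0.709, 11.5 and 16.7 CPM in P9-ELS. PBS-injected adults had 0, 0.0713 and 1.63 CPM in CTR and 0.144, 0.649 and 2.44 CPM in ELS. LPS-injected adults had 0.045, 0.729 and 1.1 CPM in CTR, and 2.36, 0.351, 0.371, 0 and 0.217 CPM in the 5 ELS mice, so the PBS and LPS ranges overlapped. No PBS-injected CTR mouse reached the P9-CTR range, and in ELS the ranges overlapped through P9 mouse P9_19.2, which had 0.709 CPM, the other 12 P9-ELS mice lying above all adults. With age the log2 fold change was -4.93 in CTR (SE 0.71, edgeR adjusted p = 1.22e-07) and -3.58 in ELS (SE 0.69, edgeR adjusted p = 2.99e-05), and over all alternatives it ran from -6.35 to -4.70 and from -4.07 to -3.34. After LPS it was 0.58 in CTR and -0.58 in ELS (edgeR adjusted p = 0.667 and 0.699), and over all alternatives it ran from 0.33 to 1.51 and from -2.03, without LPS mouse P200_2.2, to -0.09. Adults held 0 to 53 reads of the gene.

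Rb1 (ENSMUSG00000022105, chromosome 14, 73421113 to 73563507) encodes the retinoblastoma protein, the brake that D-type cyclin kinases release. Its values were 86.2, 119 and 174 CPM in P9-CTR and 76.9, 127 and 282 CPM in P9-ELS, and 120, 131 and 137 CPM in P200-CTR-PBS and 103, 122 and 146 CPM in P200-ELS-PBS. After LPS they were 66.6, 83.6 and 116 CPM in CTR, and 68.2, 101, 100, 81.9 and 66.8 CPM in the 5 ELS mice. All LPS-injected mice lay below all PBS-injected mice of their condition, with means at 0.679 and 0.676 of those of PBS in CTR and ELS, while PBS-injected adults and P9 mice overlapped. After LPS the log2 fold change was -0.56 in CTR (SE 0.17, edgeR adjusted p = 0.0196) and -0.57 in ELS (SE 0.20, edgeR adjusted p = 0.048). With age it was 0.09 and -0.10 (edgeR adjusted p = 0.653 and 0.654).

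The LPS call of Rb1 was near the threshold. In CTR it was lost without LPS mouse P200_1.3 (-0.50, edgeR adjusted p = 0.0533). In ELS it was lost without LPS mouse P200_2.2, P200_17.3 or P200_20.1 (edgeR adjusted p = 0.131, 0.0875 and 0.137) or without PBS mouse P200_2.1, P200_11.1, P200_17.1, P200_17.2 or P200_20.2 (edgeR adjusted p = 0.054, 0.062, 0.066, 0.0816 and 0.102). It was lost there too with DESeq2 size factors, no filter on low counts or another filter (edgeR adjusted p = 0.0575, 0.0962 and 0.0673), in a range of 0.00373 to 0.137, and the log2 value stayed between -0.64 and -0.49. Rb1 overlaps Rcbtb2 (median 4129 counts) and Lpar6 (median 6882 counts) on the opposite strand, so its counts are uncertain.

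Trp53 (ENSMUSG00000059552, chromosome 11, 69469669 to 69482701) encodes p53, the activator of Cdkn1a. It had 79.8, 99.6 and 121 CPM in P9-CTR, 46.7, 97 and 128 in P9-ELS, 18.32, 86.5 and 95.9 in P200-CTR-PBS and 59.1, 68.3 and 102 in P200-ELS-PBS. LPS-injected adults had 63.7, 95.5 and 114 CPM in CTR, and 116, 95.4, 105, 106 and 119 CPM in the 5 ELS mice, of which 4 lay above all PBS-injected ELS mice. The value of 18.32 CPM belonged to mouse P200_1.1, and the other 6 of its group had 80.6 to 95.9 CPM. The log2 change after LPS was 0.26 in CTR (SE 0.19, edgeR adjusted p = 0.421) and 0.58 in ELS (SE 0.21, edgeR adjusted p = 0.0609), and with age -0.34 in CTR (SE 0.17, edgeR adjusted p = 0.0995) and -0.39 in ELS (SE 0.18, edgeR adjusted p = 0.07). The CTR age value passed in limma-voom with the nest as a random effect (-0.50, limma adjusted p = 0.029), where the median over all genes was shifted downwards too. In edgeR the CTR age value was -0.17 without mouse P200_1.1 (edgeR adjusted p = 0.309). The ELS rise after LPS passed by DESeq2 (DESeq2 adjusted p = 0.0362), and in edgeR by the likelihood-ratio test, with DESeq2 size factors and with only the compared groups (edgeR adjusted p = 0.0475, 0.0485 and 0.0166), and the ELS age value passed by DESeq2 (DESeq2 adjusted p = 0.0499). Both ELS values passed without PBS mouse P200_2.1, which had the 102 CPM (LPS 0.71, edgeR adjusted p = 0.0246; age -0.52, edgeR adjusted p = 0.0238), and over all alternatives their adjusted p, from edgeR, DESeq2 or limma, ran from 0.000246 to 0.155 and from 0.000849 to 0.161. Wrap53 overlaps the exons of Trp53 on the opposite strand (median 153 counts).

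**Figure D3:**
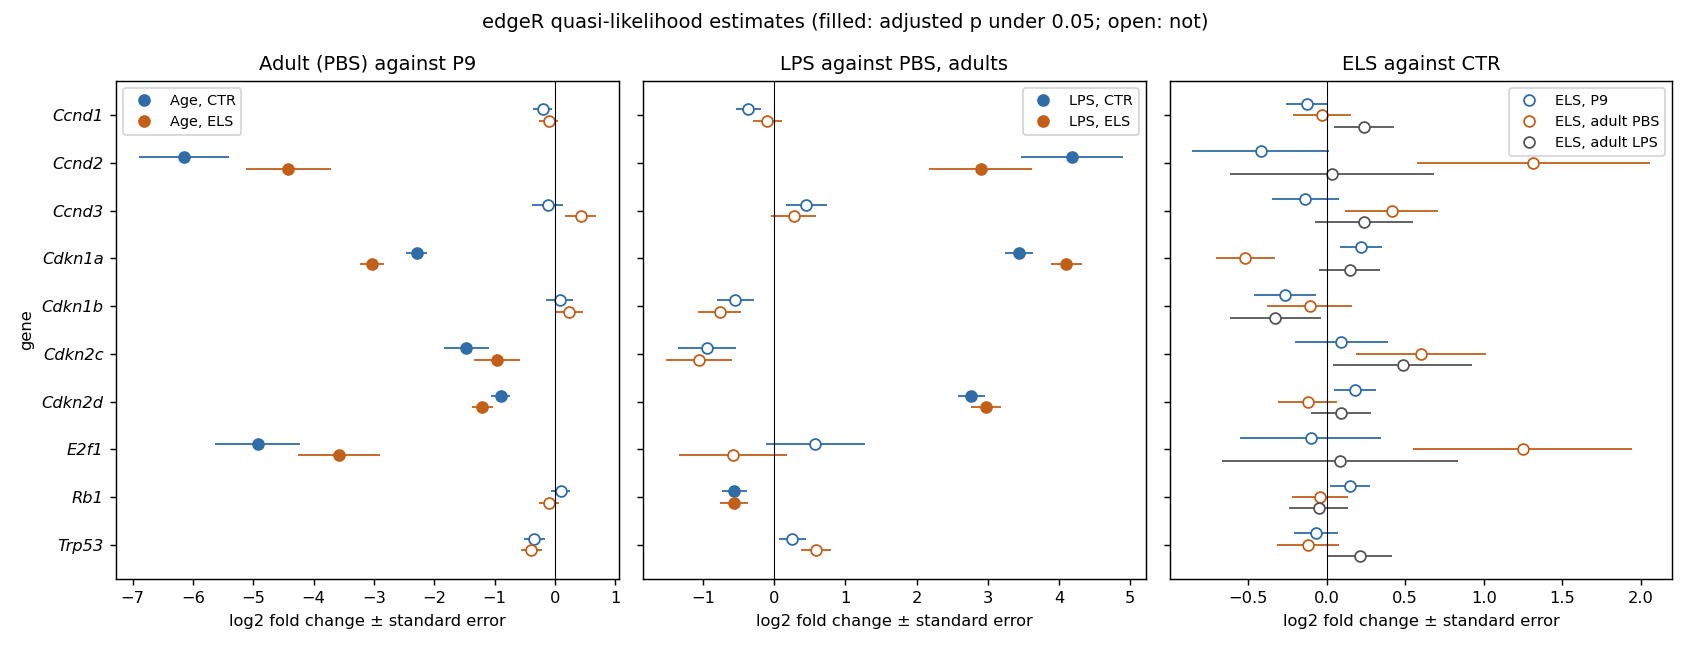
Log2 fold changes with standard errors from the edgeR fit for the 10 genes: PBS-injected adults against P9 (left), LPS against PBS (middle) and ELS against CTR (right), with filled points for an adjusted p under 0.05. The 5 genes lower with age and the 3 higher and 1 lower after LPS are filled in both CTR and ELS, and no point is filled between ELS and CTR.

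Leaving out the 3 low-detection mice raised the number of the 10 genes that passed after LPS from 4 to 7 in both conditions. In CTR the added genes were Ccnd1 (-0.44, edgeR adjusted p = 0.0159), Ccnd3 (0.48, edgeR adjusted p = 0.0362) and Cdkn2c (-1.15, edgeR adjusted p = 0.00326). In ELS they were Cdkn1b (-0.76, edgeR adjusted p = 0.0379), Cdkn2c (-1.05, edgeR adjusted p = 0.0154) and Trp53 (0.58, edgeR adjusted p = 0.000246). The mice left out were P9_19.2, P9_19.3 and P200_1.1, so the ELS groups of this comparison lost no mouse. Their log2 values in the full fit were nearly the same (-0.76, -1.06 and 0.58). The mice left out entered the ELS test only through the fit shared by all groups. The share of all genes that passed rose with them, to 19.9% in CTR and 21.3% in ELS of 16581 genes tested. With age 5 genes passed in CTR and 6 in ELS, where Trp53 was added (-0.41, edgeR adjusted p = 0.000849), beside 50.1% and 48.3% of all genes.

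In the tests of whether the age or LPS change differed between ELS and CTR, 0 of the 10 genes passed. Of all genes 0.0299% (5 genes) passed for age and 0% for LPS, with 1712 and 980 genes at an unadjusted p under 0.05 and 20 and 11 genes by DESeq2. The edgeR likelihood-ratio test called 29 and 66 genes. The 5 became 0 in limma-voom with the nest as a random effect, without the low-detection mice and with only the compared groups. Besides Cdkn1a, Ccnd2 had an unadjusted p under 0.05 in the age test (log2 difference 1.73, SE 0.86, unadjusted p = 0.0488, edgeR adjusted p = 0.486), and as single mice were left out that difference ranged from -0.71, without PBS mouse P200_17.2, to 3.15. At P9 the log2 differences between ELS and CTR ran from -0.42 (Ccnd2) to 0.22 (Cdkn1a), and in LPS-injected adults from -0.33 (Cdkn1b) to 0.49 (Cdkn2c), with an edgeR adjusted p of 1 for each gene in the latter.

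The age change of the 10 genes was set beside 3 further lists. All 25 of 25 proliferation genes, a list of replication and mitosis genes, were lower in adults in both conditions (median log2 fold change -4.97 in CTR and -4.98 in ELS, beside -0.62 and -0.68 for the 10 genes and -0.09 and -0.01 for all genes). The share of all genes that were lower was 26.6% in CTR and 25% in ELS. Mki67, a marker of cycling cells, had log2 fold changes of -7.39 in CTR and -7.01 in ELS, and Top2a, which untangles replicated DNA, of -7.0 and -6.65. The summed level of the list was 3125 and 3226 CPM at P9 in CTR and ELS, 304 and 301 CPM in PBS-injected adults and 275 and 273 CPM in LPS-injected adults. In these bulk libraries fewer cycling cells and less RNA per cell cannot be told apart.

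Of 29 tested genes of the list of other G1/S genes, 3 were higher and 15 lower with age in CTR (median -0.80), and 2 higher and 13 lower in ELS (median -0.52). Of all genes 26.6% were lower in CTR and 25% in ELS, and 44.1% and 42.2% passed in either direction. Cks1b, a cofactor of cyclin-dependent kinases, had log2 fold changes of -3.75 (CTR) and -4.77 (ELS), and the cyclin gene Ccne2 of -3.56 and -3.70. The ubiquitin ligase gene Skp2 changed by -1.91 and -2.17 and the E2F partner Tfdp1 by -2.02 and -1.75. The higher genes, named after their values were seen, were Cdkn1c and E2f3 in both conditions (1.85 and 0.79 in CTR, 2.26 and 1.04 in ELS) and Myc in CTR (0.65). In ELS 4 genes were higher without the 3 low-detection mice.

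Of 22 p53 target genes, 3 were higher and 12 lower with age in CTR (median -0.67), and 3 higher and 8 lower in ELS (median -0.56), the latter 5 without PBS mouse P200_2.1. The shares of all genes given above for age apply here too, 26.6% lower in CTR and 25% in ELS, with 44.1% and 42.2% in either direction. Gtse1 changed by -5.28 (CTR) and -4.46 (ELS), and the kinase genes Plk2 and Plk3 by -2.71 and 1.57 in CTR and by -1.77 and 1.96 in ELS, while Pmaip1 changed by -1.79 and -1.71. The other higher genes, named after their values were seen, were Btg2 (1.52 and 1.46) and Sesn1 (0.90 and 0.71).

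Of the 25 proliferation genes, 1 rose and 1 fell after LPS in CTR (Tk1 1.46, Cdt1 -1.53, median of the list -0.16) and 1 rose and 2 fell in ELS (Tk1 1.58, Cdt1 -1.35, Mcm6 -0.78, median -0.21). All-gene medians were 0.00 in CTR and -0.04 in ELS. The shares of all genes that passed were 8.73% higher and 6.2% lower in CTR, and 7.4% and 4.94% in ELS. In CTR 2 proliferation genes rose without PBS mouse P200_1.1, and 2 fell without PBS mouse P200_1.1 or LPS mouse P200_1.3. In ELS 1 fell without LPS mouse P200_2.2, P200_4.2, P200_17.3 or P200_20.1 or PBS mouse P200_11.1 or P200_17.2. Mki67 had medians of 0.428 and 1.15 CPM in PBS-injected CTR and ELS adults and 1.46 and 0.506 CPM after LPS, against 214 and 128 CPM at P9.

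Of the 29 other G1/S genes, 4 rose and 2 fell after LPS in CTR (median -0.05), and 3 rose and 2 fell in ELS (median -0.34). Of all genes 8.73% rose and 6.2% fell in CTR, and 7.4% rose and 4.94% fell in ELS. Myc, a transcription factor of growth, rose by 1.56 and 1.63 on the log2 scale. It had the highest CPM of the list, not divided by length (mean 517 and 496 CPM). Cdk6, a partner of the D-type cyclins, rose by 1.53 and 1.19. Cdk2 (0.66 and 0.58) and, in CTR, E2f8 (2.69) also rose and are named after their values were seen. E2f8 had 0 reads in 4 of 7 PBS-injected and 3 of 7 LPS-injected CTR mice, and at most 1.67 CPM, so its value rests on few reads. Lin9 fell by 1.01 in CTR and by 1.61 in ELS, Skp2 by 1.02 in CTR, and Rbl2, which encodes an Rb1 relative, by 0.78 in ELS. The 2 CTR decreases became 0 without LPS mouse P200_1.2 or P200_8.2 or PBS mouse P200_5.1, P200_8.1 or P200_18.2, and 1 without LPS mouse P200_1.3, P200_5.3, P200_8.3 or P200_18.3 or PBS mouse P200_5.2, P200_15.1 or P200_18.1, while 4 genes fell without the 3 low-detection mice. The 2 ELS decreases became 1 without LPS mouse P200_11.2.

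Of the 22 p53 target genes, 8 rose and 1 fell after LPS in CTR (median 0.09), and 4 rose and 1 fell in ELS (median 0.63). Among all tested genes 8.73% rose and 6.2% fell in CTR, and 7.4% rose and 4.94% fell in ELS. The death receptor gene Fas rose by 4.63 in CTR and 5.07 in ELS, Btg2, which restrains proliferation, by 3.02 and 2.90, and Plk2 by 3.70 and 2.61. Pmaip1 rose by 1.60 and 1.75, and Sesn2 by 2.07 in CTR and, without passing, by 1.04 in ELS (edgeR adjusted p = 0.168). Btg2 ranked 1 by p among all genes in CTR and made up most of the list's summed level of 2803 and 2533 CPM in LPS-injected CTR and ELS mice (2243 and 1979 CPM), against 869 and 845 CPM for the whole list with PBS. The gene that fell, Sesn1 (-1.38 and -1.53), was named after its values were seen. In CTR 2 genes fell without LPS mouse P200_5.3 and in ELS without LPS mouse P200_20.1, and 9 genes rose in ELS without the 3 low-detection mice. Without those 3 mice 21.3% of all genes passed in ELS in either direction. Between ELS and CTR, 0 genes of these 3 lists passed the edgeR test in any of the 3 comparisons.

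**Figure D4:**
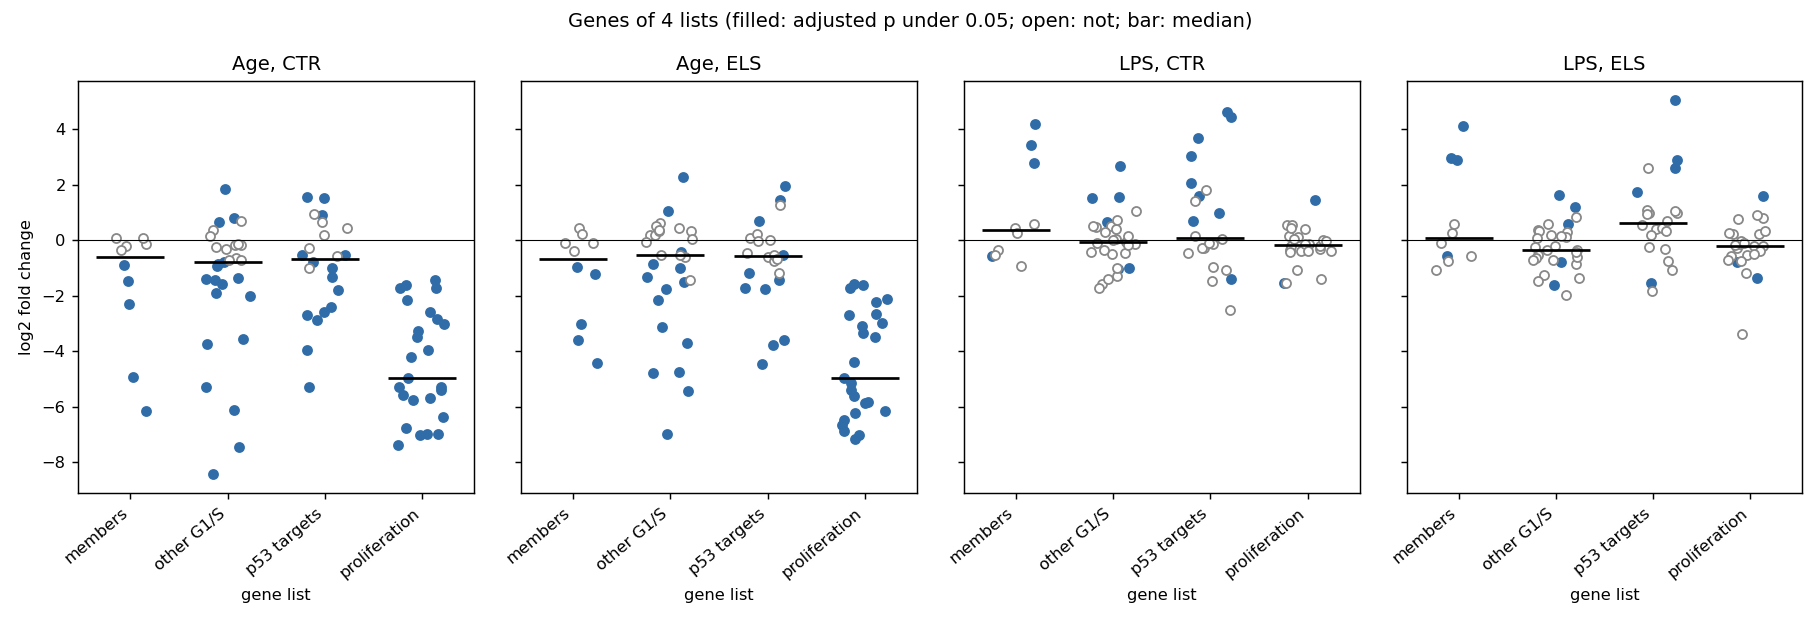
Log2 fold change of each tested gene (points, filled for an edgeR adjusted p under 0.05) in the 10 genes, the other G1/S genes, the p53 target genes and the proliferation genes, with the list median as a bar, for age and LPS in CTR and ELS. All proliferation genes lie below 0 with age, with medians of -4.97 and -4.98, and the medians after LPS are -0.16 and -0.21.

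Markers of other cell types also differed with age, and their part in the age results was not tested. Over all tested genes 26.6% were lower in CTR and 25% in ELS, and 44.1% and 42.2% passed in either direction. These shares apply to every count of markers with age below. The most abundant marker of a list is named by CPM not divided by length. All 5 of 5 border macrophage markers were lower in adults in both conditions, and their sum fell from means of 725 and 725 CPM at P9 in CTR and ELS (range 470 to 916) to 6.06 and 3.54 CPM with PBS (range 2.03 to 9.62). Mrc1 was the most abundant of them, at 711 CPM at P9, and Lyve1 was at 0 in both LPS groups. All 5 of 5 astrocyte markers were lower with age in both conditions, summing to means of 129 and 94.6 CPM at P9 (range 43.2 to 182) and 4.66 and 1.70 CPM in PBS-injected adults (range 0.0509 to 9.90), with Slc1a2 or Gfap the most abundant at P9.

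Neuron markers were lower in 5 of 5 genes in CTR and 4 of 5 in ELS, summing to 108 and 72.9 CPM at P9 (range 28.9 to 154) and 6.59 and 6.28 CPM with PBS (range 2.49 to 11.7), with Map2 the most abundant at P9 and Snap25 in adults. Neuroblast and neural progenitor markers, which include genes of dividing cells, were lower in 4 of 4 tested genes, summing to 24.7 and 21.1 CPM at P9 (range 0 to 43.6) and 0.125 and 0.0681 CPM with PBS (range 0 to 0.356). Sox11 was their most abundant gene at P9, and Sox2 and Eomes were at 0 in PBS-injected ELS adults. Whether other dividing cells contributed to the proliferation genes at P9 was not tested. Microglial markers that passed with age were mostly higher, Tmem119 the most (log2 fold change 2.01 in CTR, 2.1 in ELS), and only Fcrls, named after its values were seen, was lower (-0.39, -0.48).

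Of 3 tested monocyte markers 1 was higher and 2 lower with age in both conditions, with sums of 4.88 to 7.05 CPM in group mean and Ly6c2 at 0 in 4 groups. Of 5 oligodendrocyte lineage markers 3 were lower in CTR and 1 in ELS (sums of 18.5 to 26.1 CPM, Mbp the most abundant), and of 4 tested endothelial markers 1 was higher, Pecam1, and 2 lower (sums of 35.1 to 52.9 CPM). Beside these small counts, 26.6% of all genes were lower in CTR and 25% in ELS. None of the 5 neutrophil markers was abundant enough to be tested, and Ly6g and Retnlg were at 0 in every mouse.

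After LPS 2 of 10 microglial markers were lower in both conditions, Sall1 (-1.73 and -2.01) and P2ry12 (-0.62 and -0.58). Over all tested genes 8.73% were higher and 6.2% lower in CTR, and 7.4% higher and 4.94% lower in ELS. In ELS 2 of 5 astrocyte markers were higher (Gja1 4.47, Gfap 3.92) at summed levels of 1.70 CPM with PBS and 4.61 CPM with LPS, and 1 of 3 monocyte markers was higher. In CTR 1 gene each of the border macrophage, neuroblast and endothelial lists was higher. Monocyte and neutrophil markers summed to at most 10.4 and 4.83 CPM in any P9 or LPS-injected mouse. Between ELS and CTR in PBS-injected adults the only marker that passed was Gfap (-3.58, edgeR adjusted p = 0.0466), in a comparison where 0 genes passed with the nest as a random effect or with only the compared groups.

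Over the 47 mice with at least 16000 genes detected, and after each group's mean was subtracted, the genes whose log2 CPM was most like that of Ccnd1 were Scamp2 (Pearson r = 0.678), LTO1 (0.658) and Cnpy3 (0.658). Those most like Ccnd2 were Gm48342 (r = 0.582), Camta1 (0.512) and AU022252 (0.507), and those most like Ccnd3 were Junb (r = 0.767), Mboat7 (0.761) and Tsc22d4 (0.759). Cdkn1a was most like 1700023B13Rik (r = 0.889), Cd14 (0.67) and Arap2 (0.656). LTO1 and 1700023B13Rik overlap Ccnd1 and Cdkn1a on the opposite strand, so part of this likeness may be shared reads, which was not tested. These are descriptions over libraries that share a group and may share a nest. With all 50 mice the gene most like Ccnd3 was Mgat1 (r = 0.956), while Gm48342 (r = 0.555) and 1700023B13Rik (r = 0.79) again came first for Ccnd2 and Cdkn1a.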

How the data were processed

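Per-gene raw counts were made and deposited by the authors, 1 file per mouse, with HTSeq 0.11.0 after bcl2fastq 2.20 and cutadapt 2.10 on GRCm39. The annotation release and strand setting are not given in the sources used here. Groups were taken from the sample labels. The fits used edgeR 4.0.16 in R 4.3.3 with TMM scaling, 1 mean per group over 50 mice and no covariate. Genes with at least 1 CPM in 3 mice were tested (16696), and the threshold was an adjusted p of 0.05. CPM per kilobase used GENCODE M39 exons. Alternatives were DESeq2 1.42.0, the edgeR likelihood-ratio test, DESeq2 size factors, other filters, only the compared groups, limma 3.58.1 with the nest as a random effect, a fold threshold, no low-detection mice, a replicate block and leaving out each of 25 adult mice. A fit of adults only, with no block, was added after the data were seen. The members and the gene lists (other G1/S, p53 target, proliferation and cell type marker genes) were chosen with earlier results of these data known. Of the 30 other G1/S genes 29 were found by symbol. Genes of the lists were named mostly from the 4 per comparison with the largest absolute log2 fold change among genes that passed with a mean log2 CPM of at least 1. Not all of these are named, and others were named after their values were seen. Genes named by likeness were the 3 with the highest r. The level of 1 marker gene and the likeness of 1 other gene are not reported here. The edgeR fit was also run on simulated counts, and the outcome is not reported here. Python 3.11.15, numpy 2.4.6, pandas 2.3.3 and matplotlib 3.10.9 were used. Promoter windows came from RefSeq.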

Additional observations from a re-analysis of the deposited data

Results flagged for a closer look

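In 40 combinations of a gene and an adult group, 8 had a mouse whose gap to the others was large against the range of the group by Dixon's criterion. Its rate of about 1 in 20 by chance holds for normally distributed values. Here CPM were used untransformed, some of them near 0, and the combinations reuse the same mice, so 8 of 40 does not measure an excess. Ccnd2 was high in PBS-injected CTR mouse P200_18.2 (0.888 CPM, the others 0 to 0.214) and in PBS-injected ELS mouse P200_17.2 (2.78 CPM, the others 0.0282 to 0.362). Cdkn1b was high in LPS-injected CTR mouse P200_5.3 (33.8 CPM, the others 9.28 to 18.4). Cdkn2c was high in PBS-injected ELS mouse P200_20.2 (10.2 CPM, the others 5.05 to 6.77). Cdkn2d was high in LPS-injected ELS mouse P200_11.2 (148 CPM, the others 85 to 94.7). E2f1 was high in LPS-injected ELS mouse P200_2.2 (2.36 CPM, the others 0 to 0.371). Trp53 was low in PBS-injected CTR mouse P200_1.1 (18.32 CPM, the others 80.6 to 95.9), a low-detection library, and high in PBS-injected ELS mouse P200_2.1 (102 CPM, the others 59.1 to 74.6). No explanation of these values was tested.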

How the results depend on the processing

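Of 18 member values that passed in an age or LPS comparison, all 18 passed with the same sign by DESeq2, by the edgeR likelihood-ratio test, in limma-voom with the nest as a random effect and without the 3 low-detection mice. With DESeq2 size factors, with filterByExpr and with only the compared groups 17 did, with no filter 16, and with a fold threshold of 1 on the log2 scale 14, which left out Cdkn2d with age in CTR, Cdkn2c with age in ELS and Rb1 after LPS in both. With that threshold 4416 and 4368 of all 16696 genes passed with age in CTR and ELS, and 1606 and 1313 after LPS. Without the low-detection mice the members that passed after LPS went from 4 to 7 in CTR and in ELS, beside 19.9% and 21.3% of all genes. None of these mice was in the ELS groups of that comparison, where the log2 values hardly moved while the adjusted p fell. They bore on it only through the fit shared by all groups, and what changed in that fit was not tested. As single adult mice were left out, the members that passed ranged from 4 to 5 in the LPS comparison of CTR, 3 to 5 in that of ELS, 4 to 5 with age in ELS, stayed at 5 with age in CTR and at 0 elsewhere. In that series 151 of 165 values that had passed did so again, 14 did not, and 7 of 845 others passed; no value that passed changed sign, but values that did not pass could, such as the ELS to CTR difference of Ccnd2 in PBS-injected adults and its age interaction. The replicate block was the number before the point in the mouse label, in adults only. With it 4 members passed after LPS in CTR and 4 in ELS, and 0 in the interaction. Of all 14486 genes 2279, 2221 and 0 passed in these tests. Same-numbered mice correlated above 0.1 in 3 of 15 pairs, and limma estimated a nest correlation of 0.0778. The main fit did not treat the number as pairing, and these correlations do not show that same-numbered mice are independent. In limma-voom the median over all genes shifted by -0.22 with age in CTR and by 0.21 in the age interaction. With the longest transcript Ccnd1 was again highest in 4 groups. Depth limits Ccnd2 and E2f1 in adults, where some mice had 0 reads.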
